A study of Homo sapiens with 9 samples.

Results

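Of the 58735 genes in the OVCAR4 count table, 10 genes of TGF-beta and activin signalling were followed across 9 libraries by their gene names. They were 4 ligand genes (TGFB1, TGFB2, TGFB3 and INHBA), 2 receptor genes (TGFBR1 and TGFBR2), 3 SMAD genes (SMAD3, SMAD4 and SMAD7) and TGFBI, a response gene. OVCAR4 is an established human line of high-grade serous ovarian cancer, and the study asked what depletion of MPZL3, a membrane protein with an immunoglobulin-like domain, does to its transcripts. The 3 groups received lentivirus carrying a scramble shRNA (scr control), shMPZL3 #1 or shMPZL3 #2, followed by 3 days of puromycin. Each group had 3 biological replicates of transduced populations, and the scr control cells carried the same kind of vector and had the same selection. Of the 10 genes, 9 passed the filter on low counts and INHBA did not.

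TGF-beta ligands are made as latent dimers that are held by binding proteins in the matrix and released by integrins, proteases and thrombospondin. A released ligand binds the type II receptor TGFBR2, which activates the type I receptor TGFBR1, and this kinase phosphorylates SMAD2 and SMAD3. These join SMAD4 and enter the nucleus, where SMAD7 is among the induced genes and acts back on the receptor as an inhibitor. In epithelial and carcinoma cells the pathway is known both for growth arrest and for a shift towards mesenchymal and matrix genes.

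MPZL3 itself, the target of the shRNAs, was at 578 ± 38.5 normalized counts in scr control, at 128 ± 12.9 under shMPZL3 #1 and at 312 ± 59.5 under shMPZL3 #2 (SD, n = 3 each). A normalized count is a count brought to the average effective size of the 9 libraries. MPZL3 was lower in all 6 knockdown libraries than in the scr control libraries, and it was higher with shMPZL3 #2 than with shMPZL3 #1 (log2 difference 1.28 ± 0.16 SE, edgeR adjusted p = 5.72e-05). Total counts ran from 15040102 to 27835841 per library, and the 10 genes together held 0.0382% to 0.0461% of them. PAX8, EPCAM, MUC16 and the keratins of serous carcinoma had at least 3381 counts in every library, CDH1 at least 3780 and WFDC2 at least 810. MSLN had only 46 to 100 counts, and WT1, which often marks serous carcinoma, only 3 to 13.

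TGFB2, TGFBR1 and TGFBI were higher than in scr control with each of the shRNAs, and TGFBR2 was lower with each. Adjusted p-values here come from edgeR's quasi-likelihood test adjusted by the Benjamini-Hochberg method across 16928 genes, and a gene was called at an adjusted p under 0.05. With the 6 knockdown libraries taken as a group, 3 of the 9 genes were called higher, against 9.36% of all genes tested, and 1 was called lower, against 6.4%. With shMPZL3 #1 alone 4 were called higher (16.8% of all genes) and 2 lower (15.3%). With shMPZL3 #2 alone 3 were called higher (9.36% of all genes) and 2 lower (5.8%). The median log2 fold change of the 9 genes was 0.15 in the grouped comparison, 0.14 with shMPZL3 #1 and 0.22 with shMPZL3 #2, beside 0.02, 0.01 and 0.00 over all genes tested. The comparisons with scr control share the same 3 control libraries. In bulk RNA, more transcript per cell and more cells that make it cannot be told apart.

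The sequences upstream of the 3 genes that rose with both shRNAs are shown because the motif CAGAC, known as the SMAD box, was searched in them. They come from RefSeq (GRCh38.p14), run 5′ to 3′ on the strand of the gene from 250 bases before the RefSeq start, and stop before the first base annotated as an exon. Capitals mark CAGAC.
TGFB2, chr1:218345086-218345174, plus strand: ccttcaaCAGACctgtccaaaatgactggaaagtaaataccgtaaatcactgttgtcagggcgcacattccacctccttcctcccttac
TGFBR1, chr9:99103802-99104037, plus strand: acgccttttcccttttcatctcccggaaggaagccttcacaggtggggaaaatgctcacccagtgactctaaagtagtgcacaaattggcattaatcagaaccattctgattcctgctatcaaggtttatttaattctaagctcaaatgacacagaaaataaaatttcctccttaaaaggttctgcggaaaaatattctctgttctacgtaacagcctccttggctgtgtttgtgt
TGFBI, chr5:136028738-136028894, plus strand: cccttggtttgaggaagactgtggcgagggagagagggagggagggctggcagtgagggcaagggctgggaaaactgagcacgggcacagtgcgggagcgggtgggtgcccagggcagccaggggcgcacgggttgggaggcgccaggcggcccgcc
Within the whole 250 bases, read on both strands (CAGAC or GTCTG), TGFB2 had matches 243 and 53 bases before the start and TGFBR1 had 1 match 16 bases before it. The later match of TGFB2 lies past the end of its printed run. That of TGFBR1 starts in the last 2 letters of its run and continues past them, so it is not in capitals, and TGFBI had no match. Of the 10 genes, 4 held the motif (TGFB2, TGFB3, TGFBR1 and SMAD7), as did 38% of 35116 promoter windows of the same length. The RefSeq start used lies 899 bases from the annotated gene start for TGFB2, 20 for TGFB3, 14 for TGFBR1 and 1087 for SMAD7. For TGFBI it lies 93 bases away, and the largest distance was 2744 bases (INHBA). The AP-1 motif TGANTCA, also read on both strands, was in 0 of the 10 and in 6.57% of the windows. A match describes the letters in the window and not a bound site.

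**Figure D1:**
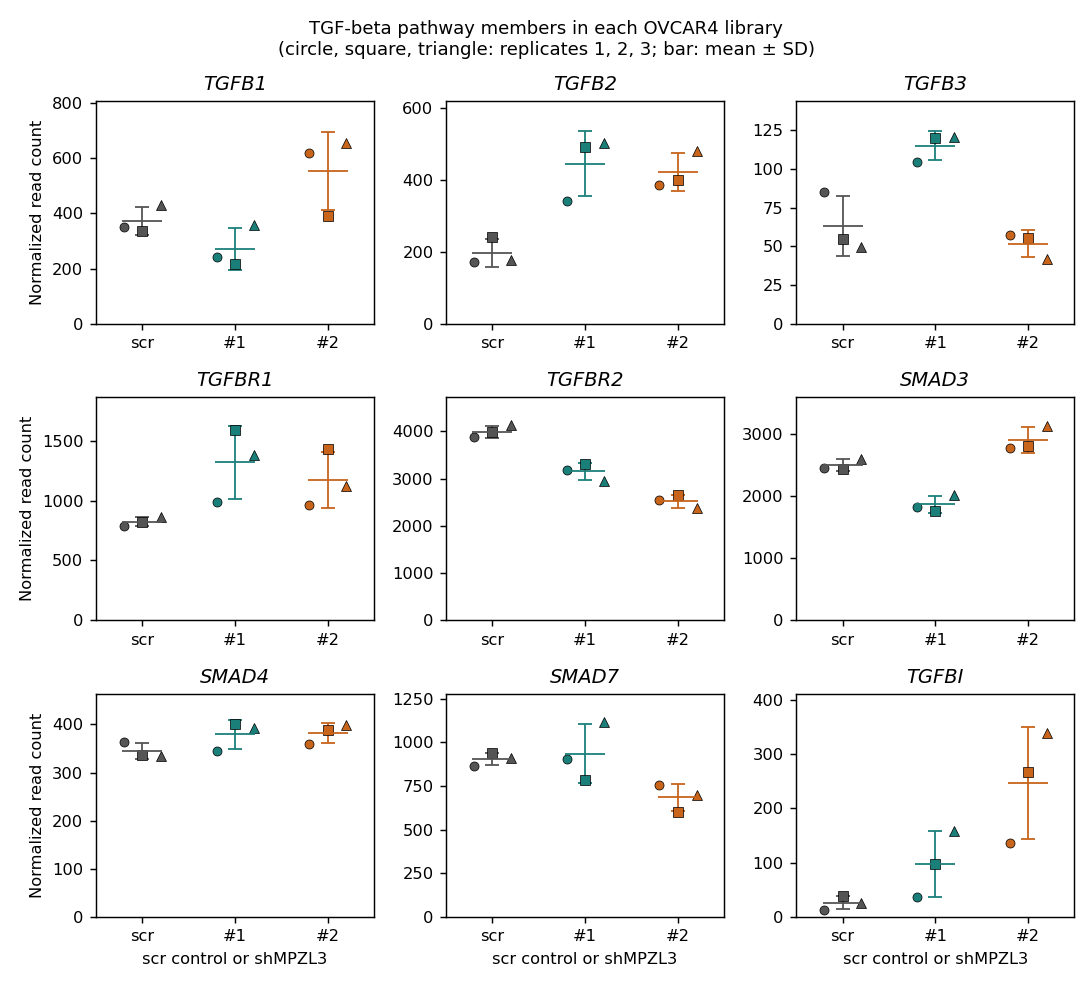
Normalized read counts (y axes, from 0) of the 9 genes that passed the filter, in scr control, shMPZL3 #1 and shMPZL3 #2; each point is a library, with the symbol giving its replicate number, and bars give the mean ± SD of 3. TGFB2 and TGFBR1 were higher in all 6 knockdown libraries, TGFBR2 was lower in all 6, and SMAD3 and TGFB1 were lower with shMPZL3 #1 than with shMPZL3 #2.

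Among the ligands, TGFB2 (ENSG00000092969; GRCh38 chromosome 1, 218346235 to 218444619, plus strand) changed most evenly. Its normalized counts were 172, 242 and 177 in the scr control libraries. They were 343, 492 and 504 with shMPZL3 #1 and 386, 402 and 483 with shMPZL3 #2. Every knockdown library was above every scr control library, and the values of the shRNAs overlapped each other. The grouped fold change was 2.20 (log2 1.13 ± 0.17 SE, edgeR adjusted p = 0.00124), and the exact two-sided permutation test of 6 against 3 libraries gave p = 0.0119, the smallest it can give. The log2 fold change was 1.17 with shMPZL3 #1 (edgeR adjusted p = 0.000137) and 1.09 with shMPZL3 #2 (edgeR adjusted p = 0.000456). The difference between the shRNAs was -0.07, with a 95% interval from -0.43 to 0.28. TGFB2 kept its call in all 16 alternative fits of the grouped comparison, with log2 fold changes from 1.04 to 1.32.

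TGFB1 (ENSG00000105329; chromosome 19, 41301587 to 41353911, minus strand), the most abundant of the TGF-beta ligand transcripts in scr control, moved apart with the shRNAs. It had 352, 337 and 429 normalized counts in scr control, 242, 216 and 358 with shMPZL3 #1, and 618, 392 and 655 with shMPZL3 #2. The libraries of each shRNA overlapped those of scr control, while all 3 of shMPZL3 #2 were above all 3 of shMPZL3 #1. Its log2 fold change was -0.45 with shMPZL3 #1 (edgeR adjusted p = 0.103) and 0.58 with shMPZL3 #2 (edgeR adjusted p = 0.0603), so neither passed the test. The first passed without shMPZL3 #1 replicate 3 (-0.70) or shMPZL3 #2 replicate 2 (-0.46) and with no filter on low counts (-0.45). The second passed with DESeq2 (0.57, adjusted p = 0.0390), with no filter (0.58), and without shMPZL3 #1 replicate 2 (0.58) or replicate 3 (0.58) or shMPZL3 #2 replicate 2 (0.77). Both passed in a fit with a block for the replicate number (-0.48 and 0.55), though the numbers were not shown to pair either shRNA with scr control. The difference between the shRNAs was 1.03 ± 0.20 SE (edgeR adjusted p = 0.00250) and was called in all 15 alternative fits. Exons of TGFB1 share 215 bases, 6.64% of their length, with HNRNPUL1. That gene held 63241 counts in all and TGFB1 3661. The libraries carry no strand, and how reads in the shared bases were assigned is not given in the sources used here.

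TGFB3 (ENSG00000119699; chromosome 14, 75958099 to 75982991, minus strand) was a rarer transcript and rose with shMPZL3 #1. It had 85.1, 54.7 and 49.5 normalized counts in scr control, 104, 120 and 121 with shMPZL3 #1, and 57.7, 55.8 and 42.1 with shMPZL3 #2. All libraries of shMPZL3 #1 were above the others, and those of shMPZL3 #2 overlapped scr control. The log2 fold change was 0.87 with shMPZL3 #1 (edgeR adjusted p = 0.0118) and -0.28 with shMPZL3 #2 (edgeR adjusted p = 0.494). The first was no longer called without scr control replicate 2 (0.77, edgeR adjusted p = 0.0606) or replicate 3 (0.73, edgeR adjusted p = 0.0608). The difference of shMPZL3 #2 from shMPZL3 #1, -1.16 ± 0.24 SE, was called in all fits (edgeR adjusted p = 0.00423 in the reported fit).

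INHBA (ENSG00000122641; chromosome 7, 41667168 to 41705834, minus strand), which encodes the subunit of activin A, was nearly silent. Its counts were 0, 0 and 0 in scr control, 0, 0 and 2 with shMPZL3 #1, and 4, 3 and 1 with shMPZL3 #2. It had 10 counts in all and did not pass the filter, so no fold change is given.

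To compare the ligands with each other, counts were divided by gene length and expressed as FPKM. Of the summed FPKM of TGFB1, TGFB2 and TGFB3, TGFB2 held 23.1% ± 5.16 in scr control, 44.7% ± 5.62 under shMPZL3 #1 and 31.6% ± 5.10 under shMPZL3 #2 (SD, n = 3 each). TGFB1 held 69.1% ± 5.41, 43.0% ± 6.40 and 64.2% ± 5.94, and TGFB3 held 7.81% ± 2.71, 12.2% ± 1.46 and 4.15% ± 1.30. The summed level was 8.09 ± 0.459 FPKM in scr control, 9.45 ± 1.75 under shMPZL3 #1 and 12.9 ± 2.36 under shMPZL3 #2. TGFB1 was the leading ligand transcript in all libraries of scr control and shMPZL3 #2, and the shares of TGFB1 and TGFB2 were alike with shMPZL3 #1. These shares were chosen after the values were seen and are given without a test.

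**Figure D2:**
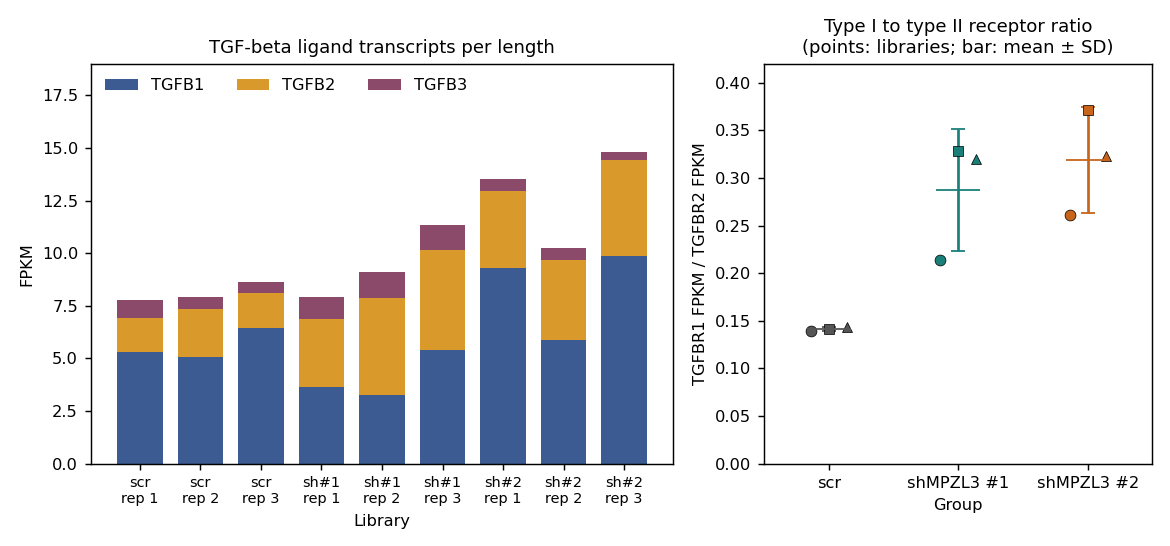
Left, FPKM of TGFB1, TGFB2 and TGFB3 stacked for each of the 9 libraries; right, the ratio of TGFBR1 to TGFBR2 FPKM in each library, with the mean ± SD of each group of 3. TGFB2 FPKM was higher in every knockdown library than in any scr control library, and the receptor ratio was 0.142 in scr control against 0.288 with shMPZL3 #1 and 0.319 with shMPZL3 #2.

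The receptors moved in opposite directions. TGFBR1 (ENSG00000106799; chromosome 9, 99104038 to 99154192, plus strand), the type I kinase, had 788, 820 and 865 normalized counts in scr control. It had 992, 1589 and 1377 with shMPZL3 #1 and 966, 1431 and 1120 with shMPZL3 #2. All 6 knockdown libraries were above the scr control libraries, and replicate 2 was the highest with either shRNA. The grouped fold change was 1.51 (log2 0.60 ± 0.16 SE, edgeR adjusted p = 0.0232, exact permutation p = 0.0238). It was 0.68 on the log2 scale with shMPZL3 #1 (edgeR adjusted p = 0.00352) and 0.51 with shMPZL3 #2 (edgeR adjusted p = 0.0381). The grouped call was lost without any 1 of the scr control libraries, with edgeR adjusted p = 0.118, 0.0890 and 0.0657 for replicates 1, 2 and 3 and log2 fold changes from 0.56 to 0.62. The call with shMPZL3 #2 was lost without any 1 of them too, and without shMPZL3 #2 replicate 2 (0.34) or replicate 3 (0.55).

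TGFBR2 (ENSG00000163513; chromosome 3, 30606502 to 30694142, plus strand), the ligand-binding type II receptor, was the most abundant of the 10 transcripts and fell. Its normalized counts were 3880, 3980 and 4130 in scr control, 3187, 3321 and 2959 with shMPZL3 #1, and 2543, 2648 and 2380 with shMPZL3 #2. The 3 groups did not overlap at all, with shMPZL3 #2 the lowest. The grouped log2 fold change was -0.49 ± 0.11 SE (edgeR adjusted p = 0.0121, exact permutation p = 0.0119). It was -0.34 with shMPZL3 #1 (edgeR adjusted p = 0.00911) and -0.66 with shMPZL3 #2 (edgeR adjusted p = 0.000111), and both of these were called in all alternative fits. The grouped call was lost without any 1 of the scr control libraries, with edgeR adjusted p from 0.0537 to 0.0553 and log2 fold changes from -0.52 to -0.48. The difference of shMPZL3 #2 from shMPZL3 #1 was -0.32 ± 0.09 SE (edgeR adjusted p = 0.0247). It was no longer called without scr control replicate 2 (-0.32), shMPZL3 #1 replicate 2 (-0.28), or shMPZL3 #2 replicate 1 (-0.34) or replicate 3 (-0.29). The ratio of TGFBR1 to TGFBR2 FPKM was 0.142 ± 0.00212 in scr control, 0.288 ± 0.0639 under shMPZL3 #1 and 0.319 ± 0.0554 under shMPZL3 #2 (SD, n = 3 each), a description chosen after the values were seen.

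Of the SMADs, SMAD3 (ENSG00000166949; chromosome 15, 67063763 to 67195195, plus strand), which carries the signal of the receptor, fell with shMPZL3 #1 and, by the test against scr control, did not pass with shMPZL3 #2. It had 2451, 2448 and 2609 normalized counts in scr control, 1825, 1758 and 2021 with shMPZL3 #1, and 2772, 2808 and 3141 with shMPZL3 #2. All of shMPZL3 #1 lay below scr control and all of shMPZL3 #2 above it. The log2 fold change was -0.42 ± 0.10 SE with shMPZL3 #1 (edgeR adjusted p = 0.00305) and 0.22 ± 0.10 SE with shMPZL3 #2 (edgeR adjusted p = 0.138). The difference between the shRNAs was 0.64 ± 0.10 SE (edgeR adjusted p = 0.000322) and was called in all alternative fits. In the grouped comparison these opposed values gave -0.07 (edgeR adjusted p = 0.827).

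SMAD4 (ENSG00000141646; chromosome 18, 51028394 to 51085045, plus strand), the partner shared with BMP signalling, was at 345 ± 17.0 normalized counts in scr control, 379 ± 30.6 under shMPZL3 #1 and 382 ± 20.4 under shMPZL3 #2 (SD, n = 3 each). The groups overlapped and no comparison was called. Its grouped log2 fold change was 0.14, with a 95% interval from -0.09 to 0.38.

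SMAD7 (ENSG00000101665; chromosome 18, 48919853 to 48952052, minus strand), the inhibitory SMAD, had 864, 936 and 912 normalized counts in scr control, 906, 782 and 1115 with shMPZL3 #1, and 753, 602 and 701 with shMPZL3 #2. The libraries of shMPZL3 #2 were the lowest, and those of shMPZL3 #1 spread on both sides of scr control. The log2 fold change with shMPZL3 #2 was -0.40 ± 0.13 SE (edgeR adjusted p = 0.0457). This call was lost with upper-quartile normalization (-0.39, edgeR adjusted p = 0.0510) and with a minimum of 10 counts in every library (-0.38, edgeR adjusted p = 0.0551). It was also lost without any 1 of the scr control libraries (-0.44, -0.37 and -0.40), without shMPZL3 #1 replicate 1 (-0.39), or without shMPZL3 #2 replicate 2 (-0.32) or replicate 3 (-0.40). The difference from shMPZL3 #1 was -0.45 ± 0.13 SE (edgeR adjusted p = 0.0262), a call lost without shMPZL3 #1 replicate 3 (-0.30) or shMPZL3 #2 replicate 2 (-0.36) or replicate 3 (-0.47).

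TGFBI (ENSG00000120708; chromosome 5, 136028895 to 136063818, plus strand), a secreted matrix protein named for its induction by TGF-beta, showed the largest fold change of the 9 genes, from a low level. Its raw counts were 10, 40 and 19 in scr control, 39, 98 and 167 with shMPZL3 #1, and 134, 264 and 451 with shMPZL3 #2. As normalized counts these were 13.3, 37.7 and 26.1, then 35.7, 97.4 and 158, then 136, 268 and 339. All libraries of shMPZL3 #2 were above scr control, and shMPZL3 #1 replicate 1 lay just under scr control replicate 2. The grouped fold change was 6.53 (log2 2.71 ± 0.61 SE, edgeR adjusted p = 0.0119, exact permutation p = 0.0238), and the call was lost without scr control replicate 1, which holds only 10 counts (2.40, edgeR adjusted p = 0.0811). With shMPZL3 #1 the log2 fold change was 1.86 ± 0.48 SE (edgeR adjusted p = 0.00708), lost without shMPZL3 #1 replicate 3 (1.31, edgeR adjusted p = 0.0597). With shMPZL3 #2 it was 3.22 ± 0.47 SE (edgeR adjusted p = 0.000164) and was called in all alternative fits. The difference between the shRNAs was 1.36 ± 0.40 SE (edgeR adjusted p = 0.0282). That call was lost with DESeq2 (1.35, adjusted p = 0.126) and without shMPZL3 #1 replicate 1 (0.95) or replicate 2 (1.36) or shMPZL3 #2 replicate 3 (1.05).

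**Figure D3:**
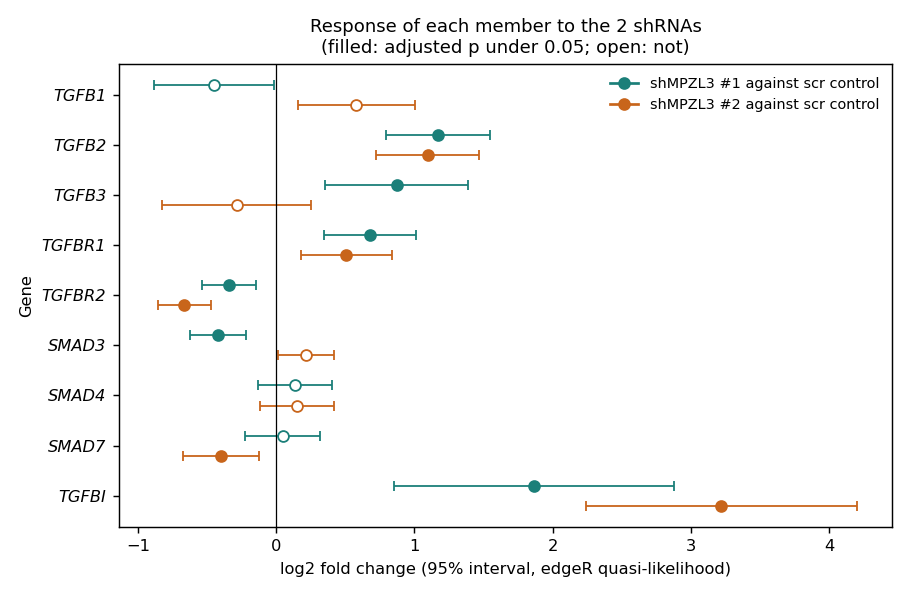
Log2 fold change (x axis) of each gene with shMPZL3 #1 and with shMPZL3 #2 against scr control; lines are 95% intervals from the edgeR quasi-likelihood fit and filled points have an adjusted p under 0.05. TGFB2, TGFBR1, TGFBR2 and TGFBI are filled for both shRNAs and on one side of 0, while TGFB1, TGFB3, SMAD3 and SMAD7 lie on opposite sides of 0. Of these opposed points, only TGFB3 and SMAD3 with shMPZL3 #1 and SMAD7 with shMPZL3 #2 are filled.

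In the direct comparison, TGFB1, SMAD3 and TGFBI, 3 of the 9 genes, were higher with shMPZL3 #2 than with shMPZL3 #1, against 7.56% of all genes tested, and 3 were lower (TGFB3, TGFBR2 and SMAD7), against 7.56%. The libraries of the shRNAs did not overlap in either direction for 5 of the 9 genes, against 30.0% of all genes. All 6 knockdown libraries were above all scr control libraries for TGFB2 and TGFBR1, which 11.8% of all genes showed, and below them for TGFBR2, which 11.0% showed. MPZL3 was also higher with shMPZL3 #2 than with shMPZL3 #1, and its part in these differences was not tested. Per length, the order of levels in scr control was TGFBR2 (41.4 ± 1.30 FPKM), SMAD3 (13.4 ± 0.495), SMAD7 (8.74 ± 0.351), TGFBR1 (5.86 ± 0.273), TGFB1 (5.60 ± 0.742), TGFB2 (1.86 ± 0.372), SMAD4 (1.28 ± 0.0630), TGFB3 (0.625 ± 0.191) and TGFBI (0.160 ± 0.0762), as FPKM with SD and n = 3. TGFBR1 and TGFB1 did not differ beyond their spread, and the other neighbours in this order were separate in all libraries.

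The rest of the pathway was counted over 118 further genes in 6 lists, of which 98 passed the filter. With shMPZL3 #1, 37 of the 98 were called higher and 8 lower, and with shMPZL3 #2, 30 were called higher and 8 lower. Over all genes tested 16.8% were called higher and 15.3% lower with shMPZL3 #1, and 9.36% and 5.8% with shMPZL3 #2, and the counts of each list that follows are read against these shares. With both shRNAs 21 of the 98 were called higher and 2 lower, and 2 were called in opposite directions. No share of all genes called with both shRNAs is given, so these counts cannot be read against a background. The median log2 fold change of the 98 was 0.27 with shMPZL3 #1 and 0.21 with shMPZL3 #2, beside 0.01 and 0.00 over all genes. Grouped counts were 23 higher and 2 lower, beside 9.36% and 6.4% of all genes tested, so the count called lower was under its background. Over all genes, the grouped calls fell from 2667 to 625 without scr control replicate 1 and to 962 without replicate 2. The 23 became 10 without scr control replicate 1 and 12 without replicate 2. The 2 became 0 without either of these, 1 without scr control replicate 3 and 4 without shMPZL3 #1 replicate 2, and the 8 called lower with shMPZL3 #1 became 5 without scr control replicate 3.

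**Figure D4:**
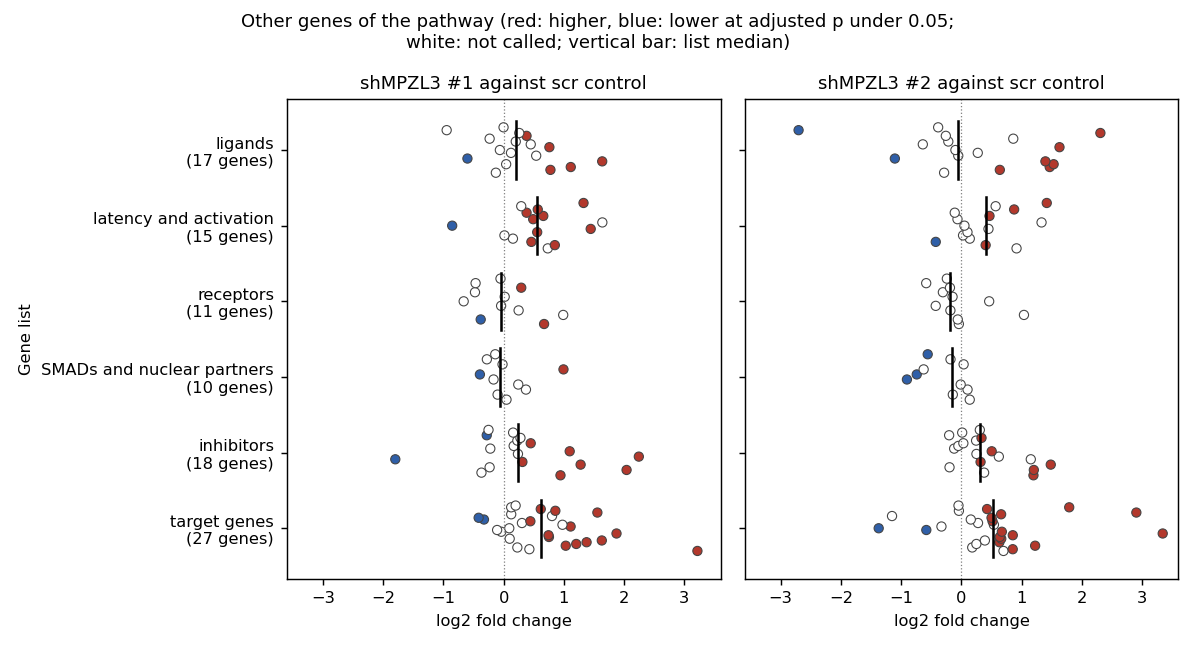
Log2 fold changes (x axis) of the 98 further pathway genes in 6 lists (y axis), with shMPZL3 #1 on the left and shMPZL3 #2 on the right; points are genes, red called higher and blue called lower, and vertical bars are list medians. The target genes and the genes of latency and activation have medians above 0 with both shRNAs (0.62 and 0.52, and 0.56 and 0.40), and those of the receptors are -0.04 and -0.18.

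In the target gene list, 27 of 30 genes passed the filter, 13 were called higher and 2 lower with shMPZL3 #1, and 14 were called higher and 2 lower with shMPZL3 #2. The shares of all genes were 16.8% and 15.3%, and 9.36% and 5.8%, so the count called lower with shMPZL3 #1 was under its background. The 2 called lower with shMPZL3 #1 were 1 without any 1 of the scr control or shMPZL3 #1 libraries, and the 2 called lower with shMPZL3 #2 were 4 with no filter on low counts. In the direct comparison 8 of the 27 were called higher and 9 lower with shMPZL3 #2, beside 7.56% each way over all genes tested. FN1, fibronectin, was at 894 ± 213 normalized counts in scr control, 3276 ± 1398 under shMPZL3 #1 and 9050 ± 2717 under shMPZL3 #2 (SD, n = 3 each). It was called with each shRNA and, like TGFBI, was higher with shMPZL3 #2 than with shMPZL3 #1 (log2 difference 1.47, edgeR adjusted p = 0.00135). CDKN1A, the cell cycle inhibitor p21, rose by 1.03 on the log2 scale with shMPZL3 #1 and by 1.22 with shMPZL3 #2. The matricellular gene CYR61 rose by 0.74 and 0.85. The collagen gene COL1A1 rose by 1.38 and 0.63, the second call being lost without scr control replicate 2 or 3 or shMPZL3 #2 replicate 1 or 3 (lowest value 0.50). ACTA2, smooth muscle actin, rose with shMPZL3 #1 from 286 ± 135 to 2655 ± 506 normalized counts, and was at 464 ± 67.5 with shMPZL3 #2 (log2 difference between the shRNAs -2.52, edgeR adjusted p = 4.9e-06). Of the EMT factors in the list, SNAI2, ZEB1 and TWIST1 had at most 3 counts in a library, while SNAI1, named after its values were seen, was at 170 ± 10.8 normalized counts in scr control, 309 ± 50.7 under shMPZL3 #1 and 166 ± 32.4 under shMPZL3 #2. SNAI1 was called higher with shMPZL3 #1 (log2 0.86, edgeR adjusted p = 0.00135).

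Summed levels of 8 fibroblast markers were 18.5 to 22.7 CPM in scr control, 42.6 to 62.0 with shMPZL3 #1 and 33.8 to 37.8 with shMPZL3 #2. They came from COL1A1, COL1A2 and LUM, while DCN and POSTN had 0 counts in every library and PDGFRA at most 2. Leukocyte markers summed to at most 5.79, 9.39 and 9.29 CPM in the same order of groups, endothelial markers to 8.16 to 10.1, 7.40 to 8.93 and 12.5 to 16.2 CPM, and mesothelial markers to 127 to 132, 89.5 to 124 and 117 to 181 CPM. The mesothelial sum came mainly from UPK3B, with 1679 to 3599 counts in a library. LRRN4 had 42 to 225, and CALB2, DES and PRG4 had at most 5, 11 and 9. All libraries came from the cultured OVCAR4 line, and a part of other cells in the changes of the listed genes was not tested.

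In the list of latency and activation, all 15 genes passed the filter, 9 were called higher and 1 lower with shMPZL3 #1, and 4 were called higher and 1 lower with shMPZL3 #2. Beside the shares of all genes (16.8% and 15.3%, then 9.36% and 5.8%), the count called lower was under the background with shMPZL3 #1 and near it with shMPZL3 #2. The 4 became 2 without scr control replicate 1 or without shMPZL3 #2 replicate 1. THBS1, thrombospondin 1, an activator of latent TGF-beta, was at 8569 ± 2716 normalized counts in scr control, 21473 ± 5066 under shMPZL3 #1 and 22853 ± 2225 under shMPZL3 #2 (SD, n = 3 each). The latent TGF-beta binding proteins LTBP4 and LTBP2 rose by 0.57 and 0.66 on the log2 scale with shMPZL3 #1 and by 0.87 and 0.47 with shMPZL3 #2. LTBP1 and LTBP3, named after their values were seen, rose with shMPZL3 #1 only (0.49 and 0.38, edgeR adjusted p = 0.00152 and 0.0226). With shMPZL3 #2 they were at -0.07 and -0.11 and were not called. FURIN, a protease that cleaves the ligand precursors, rose by 0.85 with shMPZL3 #1 and by 0.40 with shMPZL3 #2. With shMPZL3 #2, LTBP2 lost its call without scr control replicate 1 or shMPZL3 #2 replicate 1 or 3 (lowest value 0.28), and FURIN without any 1 of the scr control libraries or shMPZL3 #2 replicate 1 (lowest value 0.29). The integrin subunits ITGB6 and ITGB5, which pair with the alpha v subunit, were called lower with shMPZL3 #2 than with shMPZL3 #1 (edgeR adjusted p = 0.00164 and 0.0107), as was FURIN (log2 difference -0.45, edgeR adjusted p = 0.00920). The integrin subunit ITGB8, named after its values were seen, went the other way (log2 difference 0.90, edgeR adjusted p = 6.3e-05). It fell with shMPZL3 #1 (log2 -0.85, edgeR adjusted p = 4.2e-05). In the direct comparison 1 of the 15 genes was called higher and 6 lower, beside 7.56% each way over all genes tested. The count called higher was near its background. ITGB6 was at 3574 ± 912 normalized counts in scr control, 9729 ± 2321 under shMPZL3 #1 and 4877 ± 880 under shMPZL3 #2. The 1 gene called lower with shMPZL3 #2 was ITGAV, the alpha v subunit (log2 -0.43, edgeR adjusted p = 0.0415). This gene was called higher with shMPZL3 #1 (log2 0.46, edgeR adjusted p = 0.0151). Its call with shMPZL3 #2 was lost without scr control replicate 2 or 3 or shMPZL3 #2 replicate 1 or 3. That call was also lost with at least 10 counts in every library.

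Of the other ligands, 17 of 29 passed the filter, 5 were called higher and 1 lower with shMPZL3 #1, and 6 were called higher and 2 lower with shMPZL3 #2. The shares of all genes were 16.8% and 15.3%, and 9.36% and 5.8%, and the 1 called lower with shMPZL3 #1 was under its background. BMP6, at 226 ± 54.6 normalized counts in scr control, rose to 701 ± 140 with the former shRNA and 593 ± 37.7 with the latter (SD, n = 3 each). GDF15, a divergent and stress-responsive member of the family, went from 1192 ± 127 to 2015 ± 289 and 3676 ± 310 and was higher with shMPZL3 #2 (log2 difference 0.87, edgeR adjusted p = 0.000125). BMP1, a metalloprotease despite its name, rose by 0.78 and 0.64 on the log2 scale. BMP2 rose by 1.11 and 1.46 from 26.1 ± 16.8 normalized counts. BMP2 lost both calls without scr control replicate 1 or 2, and that with shMPZL3 #1 also without its replicate 3 (0.76 to 1.04 with shMPZL3 #1). BMP7 fell from 8225 ± 477 to 5423 ± 1255 and 3825 ± 949. Its log2 difference between the shRNAs, -0.50 (edgeR adjusted p = 0.0416), was not called with DESeq2 (-0.51) or without scr control replicate 2 or 3, shMPZL3 #1 replicate 1 or 3, or shMPZL3 #2 replicate 2 or 3 (-0.57 to -0.31). The count of 5 became 3 without scr control replicate 1 or shMPZL3 #1 replicate 3, and the 2 lower became 1 without shMPZL3 #2 replicate 3. INHBE, an activin subunit gene, was at 37.6 ± 10.3 in scr control, 44.2 ± 8.17 under shMPZL3 #1 and 183 ± 36.1 under shMPZL3 #2, and it differed between the shRNAs by 2.05 (edgeR adjusted p = 4.9e-05). INHBB, another activin subunit gene, named after its values were seen, was at 1255 ± 37.5, 1633 ± 197 and 1048 ± 91.6 in the same order. INHBB was called higher with shMPZL3 #1 (log2 0.38, edgeR adjusted p = 0.0123) and was not called with shMPZL3 #2 (-0.26, edgeR adjusted p = 0.116). It was lower with shMPZL3 #2 than with shMPZL3 #1 (log2 difference -0.64, edgeR adjusted p = 0.000764).

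Of the secreted and cellular inhibitors, 18 of 21 passed the filter, 7 were called higher and 2 lower with shMPZL3 #1, and 6 were called higher and 0 lower with shMPZL3 #2. The shares of all genes were 16.8% and 15.3%, and 9.36% and 5.8%, and the counts called lower were under them. The 6 became 1 without scr control replicate 1, 3 without scr control replicate 2 and 2 without shMPZL3 #2 replicate 3. The pseudoreceptor BAMBI went from 324 ± 73.3 normalized counts in scr control to 626 ± 178 under shMPZL3 #1 and 745 ± 38.5 under shMPZL3 #2 (SD, n = 3 each). PMEPA1, which binds receptor-activated SMADs, went from 1492 ± 258 to 3189 ± 450 and 2111 ± 224. The BMP antagonist CHRD rose by 2.04 and 1.20 on the log2 scale, and the activin antagonists FST and FSTL3 by 1.28 and 1.48 and by 0.31 and 0.32. With shMPZL3 #2 the call of CHRD was lost without scr control replicate 1 (0.89), that of PMEPA1 without scr control replicate 1 or 2 or shMPZL3 #2 replicate 3 (0.38 to 0.50), and that of FST without scr control replicate 1 (1.07) or shMPZL3 #2 replicate 3 (1.41). With shMPZL3 #1 the call of FST was lost without scr control replicate 1 (0.86) or shMPZL3 #1 replicate 3 (1.01). FSTL3 lost its call with either shRNA without any 1 of the scr control libraries. It also lost that with shMPZL3 #1 without replicate 3 of that shRNA (0.25), and that with shMPZL3 #2 without replicate 1 (0.23) or 3 (0.33) of that shRNA or under RLE normalization or no filter. PMEPA1 was lower with shMPZL3 #2 than with shMPZL3 #1 (log2 difference -0.59, edgeR adjusted p = 0.00559). The 2 called lower with shMPZL3 #1 were 0 without scr control replicate 3, 1 without replicate 1 or 2, shMPZL3 #1 replicate 3 or shMPZL3 #2 replicate 3, and 4 without shMPZL3 #1 replicate 2. They were also 0 with at least 10 counts in every library and 1 with upper-quartile normalization. GREM1, another BMP antagonist, was at 51.0 ± 24.7 normalized counts in scr control, 14.4 ± 10.4 under shMPZL3 #1 and 113 ± 51.9 under shMPZL3 #2, and LDLRAD4, which binds SMADs, at 19.5 ± 13.2, 92.2 ± 7.95 and 30.0 ± 6.55. Both differed between the shRNAs, GREM1 by 2.95 (edgeR adjusted p = 0.000653) and LDLRAD4 by -1.62 (edgeR adjusted p = 0.00502).

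Among the receptors outside the 10 genes, 11 were tested and 2 were called higher and 1 lower with shMPZL3 #1 and 0 either way with shMPZL3 #2. With 16.8% and 15.3% of all genes called with shMPZL3 #1 and 9.36% and 5.8% with shMPZL3 #2, these counts were near or under the background. ACVR1 was at 329 ± 35.7 normalized counts in scr control, 523 ± 39.6 under shMPZL3 #1 and 319 ± 28.6 under shMPZL3 #2 (SD, n = 3 each), and BMPR2 at 2076 ± 31.0, 2542 ± 274 and 1818 ± 119. Both were lower with shMPZL3 #2 than with shMPZL3 #1 (edgeR adjusted p = 0.00162 and 0.00364). ACVR1B, the type I activin receptor, was higher with shMPZL3 #2 (log2 difference 0.32, edgeR adjusted p = 0.0470), a call lost when any 1 of the 9 libraries was left out (0.28 to 0.36). That call was also lost with upper-quartile normalization (0.29), with no filter (0.32) and with at least 10 counts in every library (0.30). The 2 called higher with shMPZL3 #1 were 1 without any 1 of the scr control libraries or without shMPZL3 #1 replicate 2 or 3. Of 10 SMADs and nuclear partners tested, 1 was called higher and 1 lower with shMPZL3 #1 and 3 were called lower with shMPZL3 #2. The counts with shMPZL3 #1 were under the background of 16.8% and 15.3%, and 5.8% of all genes were called lower with shMPZL3 #2. The inhibitory SMAD6 fell with both, from 2532 ± 31.9 to 1926 ± 260 and 1514 ± 170 normalized counts, a call lost with shMPZL3 #1 without its replicate 2 (-0.29). The difference of SMAD6 between the shRNAs was -0.35 (edgeR adjusted p = 0.0452), not called without any 1 of the scr control libraries, shMPZL3 #1 replicate 1 or 3, or shMPZL3 #2 replicate 2 or 3 (-0.38 to -0.26). The 1 called higher with shMPZL3 #1 became 2 without shMPZL3 #1 replicate 1 or shMPZL3 #2 replicate 2, and also with DESeq2, upper-quartile normalization or at least 10 counts in every library. The BMP-activated SMAD5 and SMAD9 were lower with shMPZL3 #2 than with shMPZL3 #1, by -0.74 (edgeR adjusted p = 0.000788) and -1.62 (edgeR adjusted p = 9.7e-05). Against scr control, SMAD5 fell with shMPZL3 #2 (log2 -0.91, edgeR adjusted p = 0.000108) and was not called with shMPZL3 #1 (-0.17, edgeR adjusted p = 0.323). SMAD9 rose with shMPZL3 #1 (log2 0.99, edgeR adjusted p = 0.00161) and was not called with shMPZL3 #2 (-0.63, edgeR adjusted p = 0.0618).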

How the data were processed

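Messenger RNA of 9 OVCAR4 libraries was selected by poly-A and sequenced without strand information by the authors, who deposited raw counts per gene. The labels name HISAT2 2.0.5, featureCounts 1.5.0-p3 and hg38 in the submitters' processing notes. All 58735 genes matched GENCODE release 29 in identifier and position. Each library's group came from its label.

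Counts were analysed with edgeR 4.0.16 and limma 3.58.1 in R 4.3.3 and with Python 3.11.15. After filterByExpr, 16928 genes (99.8% to 99.9% of the counts) were tested, with TMM factors from 0.983 to 1.03. Two-sided quasi-likelihood tests compared 6 knockdown with 3 scr control libraries and, in a fit of 3 groups, each shRNA with scr control and with each other. The fits were tested on simulated data. FPKM was computed from the counts, the deposited gene lengths and the effective library sizes. P-values of the fit of 3 groups measure the spread between these replicates. In the grouped tests, the exact test included, the spread also holds the difference between the shRNAs. The tests treat all libraries as independent, although same-numbered libraries of the shRNAs deviated together. The methods of the study name DESeq2, used here (1.42.0) as an alternative.

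The genes and lists were chosen with earlier results of these data known. Per list, up to 5 genes called in one direction for both shRNAs and up to 3 called between the shRNAs were named, by the largest grouped log2 fold change, at an average log2 CPM of at least 1. Some results that this rule or the search for like patterns gave are not reported here. As alternatives, DESeq2 was run, edgeR was run with RLE or upper-quartile scaling, with no filter, with at least 10 counts in every library and with a replicate block, and further settings were a log2 fold change threshold of 1, the mean of both shRNAs in the 3-group fit, and each library left out in turn. Same-numbered libraries of the shRNAs deviated together over genes (correlations of 0.386 to 0.722, against -0.555 to 0.192 for different numbers), so the numbers pair shMPZL3 #1 with shMPZL3 #2. Between scr control and shMPZL3 #1 they were -0.041 to 0.297 for same and -0.341 to 0.219 for different numbers. Between scr control and shMPZL3 #2 they were -0.032 to 0.088 and -0.111 to 0.047. These ranges overlap, so a pairing with scr control is neither shown nor excluded. No replicates were alike within counting noise (chi-square per gene 3.16 to 23.7). The smallest p of an exact test of 6 against 3 is 0.0119.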

Additional observations from a re-analysis of the deposited data

Results flagged for a closer look

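The direct test of shMPZL3 #2 against shMPZL3 #1 picked out 6 of the 9 genes tested, whose response differed between the shRNAs (edgeR quasi-likelihood test, adjusted over all genes). On the log2 scale TGFB1 differed by 1.03 (adjusted p = 0.00250), SMAD3 by 0.64 (adjusted p = 0.000322) and TGFBI by 1.36 (adjusted p = 0.0282), all higher with shMPZL3 #2. TGFB3 differed by -1.16 (adjusted p = 0.00423), TGFBR2 by -0.32 (adjusted p = 0.0247) and SMAD7 by -0.45 (adjusted p = 0.0262), all lower with shMPZL3 #2. For TGFB1 and SMAD3 the values with the shRNAs lay on opposite sides of scr control, so the grouped comparison showed little of either. Of these values against scr control, only that of SMAD3 with shMPZL3 #1 was called. Over all genes tested, 7.56% were called higher and 7.56% lower in the direct comparison. The calls of TGFBR2, SMAD7 and TGFBI were lost in 4, 3 and 4 alternatives.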

How the results depend on the processing

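The grouped, shMPZL3 #1, shMPZL3 #2 and direct comparisons called 4, 6, 5 and 6 of the 9 genes. A log2 fold change threshold of 1 left 2, 2, 2 and 3. Leaving out each library in turn gave 1 to 4, 5 to 7, 3 to 6 and 3 to 6. The exact test of single genes, at an unadjusted p under 0.05, found 3 to 5 in those runs. No share of all genes is given for the threshold of 1 or for the exact test, so those counts have no background beside them. The replicate block gave 4, 7, 6 and 6 and made TGFB1 called with shMPZL3 #1 (-0.48, adjusted p = 0.00808) and shMPZL3 #2 (0.55, adjusted p = 0.00452). It changed no call of the 9 genes in the direct comparison, the only one for which the correlations show a pairing. Over all genes 2667, 5423, 2567 and 2559 were called, and 2424, 6355, 3680 and 3823 with the block. The grouped count was 4677 as the mean of both shRNAs in the 3-group fit, and 625, 962 and 1238 without scr control replicates 1, 2 and 3. That with shMPZL3 #2 was 1398, 1579 and 1366 without scr control replicate 1, scr control replicate 2 and shMPZL3 #2 replicate 3, and the direct one 1584, 1647 and 1469 without shMPZL3 #1 replicate 3 and shMPZL3 #2 replicates 1 and 3. The grouped counts over the pathway lists, 23 higher and 2 lower, were 36 and 9 as the mean of both shRNAs. The replicate block moved the inhibitors called higher with shMPZL3 #2 from 6 to 10, those called lower with shMPZL3 #1 from 2 to 5, the target genes called lower with shMPZL3 #2 from 2 to 4, and the SMADs and partners called higher with shMPZL3 #1 from 1 to 2.

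Values that changed sign were all uncalled. SMAD4 in the direct comparison was -0.016 with upper-quartile normalization and -0.0077 with at least 10 counts in every library. With single libraries left out it ran from -0.063 to 0.052, TGFB2 in that comparison from -0.24 to 0.024, SMAD7 with shMPZL3 #1 from -0.098 to 0.16, and in the grouped comparison TGFB1 from -0.012 to 0.28 and SMAD3 from -0.14 to 0.015. The causes were not tested. Depth limits INHBA, with 10 counts in all, and TGFBI in scr control.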

Other observations

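By Pearson's r of log2 CPM over the 9 libraries, among 9887 other protein-coding genes, the genes with the pattern most like TGFBI were LAMP3 (r = 0.98), FN1 (0.978) and MYO1E (0.977). For TGFB2, searched against 9886 genes, they were CYTH1 (0.98), STAT5A (0.976) and ANKRD1 (0.975). These values describe 9 libraries in 3 groups that share their source, and no test was made of them.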
